A study of Mus musculus with 24 samples.

Results

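The genes described here are 10 that serve protein folding in the endoplasmic reticulum (ER) and the unfolded protein response (UPR): Hspa5, Hsp90b1, Pdia3, Pdia4, Pdia6, Calr, Canx, Xbp1, Atf4 and Ddit3. They were taken by symbol from a table of 55487 gene IDs. The 10 symbols stood on 11 IDs, since Ddit3 had a second ID (ENSMUSG00000116429) with 4, 2, 1 and 0 counts in the 4 tumors, which was not used. Counts came from macrophages sorted as CD45+ CD11b+ F4/80+ cells out of orthotopic tumors of MC38, a colon carcinoma line of the mouse, in C57BL/6J hosts. The label attaches the genotype to the tumor: APC-WT tumors carried Apc, a tumor suppressor that restrains Wnt signalling, and APC-KO tumors did not. The macrophages are cells of the host, so their own Apc level does not check the label. There were 2 tumors per genotype and 6 libraries per tumor, 24 in all. The age and sex of the mice, how many were pooled, and whether the APC-KO line was 1 clone are not given in the sources used here.

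HSPA5 (BiP) is the Hsp70 of the ER and binds unfolded chains, HSP90B1 (GRP94) is its Hsp90, the PDI family forms and rearranges disulfide bonds, and the lectins calnexin and calreticulin hold glycoproteins while they fold. When unfolded protein accumulates, the sensors IRE1, PERK and ATF6 start the UPR: IRE1 splices Xbp1 mRNA, PERK slows translation while that of Atf4 rises, and cleaved ATF6 moves to the nucleus and induces chaperones. CHOP, the product of Ddit3, acts downstream of ATF4 and is known for its part in cell death under lasting stress. Counts per gene do not separate spliced from unspliced Xbp1, nor do they show protein or translation.

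All 24 libraries held macrophage RNA, and the genotypes differed in how much other signal they held. The APC-WT libraries were the deeper ones, with 74972634 to 93568353 counts each in tumor 1 and 28018638 to 46837543 in tumor 2, beside 8895722 to 19328572 and 13464061 to 17196820 in the APC-KO tumors. Background spread over exons, as read from 1974 olfactory and vomeronasal receptor genes, was estimated at 0.751% and 5.05% of counts in the APC-WT tumors and at 17.6% and 17.9% in the APC-KO tumors, and satellite-like loci took a further 1.32% and 7.08% against 37.9% and 38.5%. Depth, background and genotype therefore moved together over the 4 tumors and cannot be told apart. Levels are given as scaled CPM, which is CPM over the TMM-scaled total of 3938 expressed genes. A gene counted as expressed when its mean over the tumors reached 10 CPM and exceeded its expected background 10 times. All 10 ER genes were among them. Their expected background made up at most 9.18% of a mean level, that of Pdia4 in APC-KO tumor 2.

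The 12 macrophage markers were all expressed, with summed levels of 33412 to 42603 scaled CPM per library. Ptprc, Itgam and Adgre1, the genes of the markers used for sorting, were lower in APC-KO tumors. Ptprc was at 1137 and 1116 in APC-WT and 381 and 405 in APC-KO tumors. Itgam was at 1599 and 1716 against 281 and 279, and Adgre1 at 1270 and 1113 against 279 and 282. Csf1r, Cd14 and Cd68 were also lower, Lyz2, C1qa and C1qb were higher, and the others overlapped. Single markers carry no offset for length and were not tested. Of the 12 plasma and B cell markers, a list taken because such cells are rich in ER chaperones, 2 were expressed, and the sum was 231 to 314 in APC-WT and 280 to 369 in APC-KO libraries, where the expected background was 164 and 165. No marker was at 0 in a tumor sum, and the plasma cell genes Jchain and Mzb1 reached at most 24.6 and 11.6 scaled CPM. The sum of 12 fibroblast markers, 4 of them expressed, was 979 to 1902 in APC-WT and 433 to 730 in APC-KO libraries. Expected background for it was 5.89 and 42.3 in the APC-WT and 300 and 302 in the APC-KO tumors. The sum of 12 T and NK cell markers, none expressed, was 30.9 to 70.8 in APC-WT and 192 to 356 in APC-KO libraries, where 119 and 120 were expected as background. Sums of endothelial markers (139 to 235 against 308 to 441) and dendritic cell markers (23.8 to 73.2 against 254 to 332) were also higher in APC-KO libraries, over an expected background of 204 to 205 and 133 to 134 there, and sums of neutrophil and of epithelial markers overlapped between genotypes. The part of these cells in the differences below was not tested. In RNA of a sorted bulk population, fewer cells of a type and less RNA per cell cannot be told apart.

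ATF6 and its partner NF-Y are known to bind the ER stress element, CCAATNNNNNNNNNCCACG, in chaperone promoters. This motif was searched for on both strands of the 250 bases before each RefSeq start (GRCm38.p6), where all 10 genes were found. An exact match stood in 5 of the 10 promoters, those of Hspa5, Hsp90b1, Pdia6, Calr and Canx, and in 37 of 32851 promoters (0.113%). As the motif is known from chaperone promoters, this share and the one with 1 mismatch below describe the windows and are no test. The 5 windows are shown because they carry the element that 5 of the chaperones share, with the matches in capitals. A match on the other strand begins with CGTGG and ends with ATTGG.
Hspa5 promoter, chr2:34771840-34772089, + strand: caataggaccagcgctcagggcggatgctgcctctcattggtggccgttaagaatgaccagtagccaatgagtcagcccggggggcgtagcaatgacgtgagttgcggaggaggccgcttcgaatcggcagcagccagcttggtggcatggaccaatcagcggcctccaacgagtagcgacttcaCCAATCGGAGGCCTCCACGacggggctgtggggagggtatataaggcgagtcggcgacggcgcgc
Hsp90b1 promoter, chr10:86705445-86705694, - strand: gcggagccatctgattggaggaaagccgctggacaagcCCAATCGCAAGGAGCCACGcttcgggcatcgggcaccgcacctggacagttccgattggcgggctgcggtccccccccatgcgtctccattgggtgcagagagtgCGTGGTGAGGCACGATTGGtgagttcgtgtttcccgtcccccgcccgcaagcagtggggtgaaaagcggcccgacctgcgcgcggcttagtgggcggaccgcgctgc
Pdia6 promoter, chr12:17266339-17266588, + strand: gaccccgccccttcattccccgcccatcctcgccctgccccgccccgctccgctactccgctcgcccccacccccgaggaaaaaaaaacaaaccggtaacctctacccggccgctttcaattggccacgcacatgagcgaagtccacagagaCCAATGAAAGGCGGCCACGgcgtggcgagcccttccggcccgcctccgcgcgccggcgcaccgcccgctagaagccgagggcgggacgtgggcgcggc
Calr promoter, chr8:84846932-84847181, - strand: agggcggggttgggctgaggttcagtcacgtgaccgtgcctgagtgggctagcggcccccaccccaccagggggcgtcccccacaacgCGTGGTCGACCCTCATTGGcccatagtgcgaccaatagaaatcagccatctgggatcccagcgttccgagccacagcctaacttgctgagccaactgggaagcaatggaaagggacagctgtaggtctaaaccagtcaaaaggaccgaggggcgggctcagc
Canx promoter, chr11:50325674-50325923, - strand: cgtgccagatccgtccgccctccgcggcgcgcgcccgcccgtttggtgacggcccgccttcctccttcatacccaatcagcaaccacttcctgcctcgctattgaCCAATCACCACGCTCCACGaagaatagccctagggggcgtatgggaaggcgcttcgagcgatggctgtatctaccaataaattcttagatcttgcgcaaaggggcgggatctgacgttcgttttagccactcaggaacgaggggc
The element lay 65 to 47 bases before the start in Hspa5, 212 to 194 and, on the other strand, 107 to 89 bases before it in Hsp90b1, 98 to 80 in Pdia6, 162 to 144 on the other strand in Calr, and 145 to 127 in Canx. RefSeq starts Hspa5 inside the GENCODE gene model, which therefore already contains the element. With up to 1 mismatch the motif stood in 8 of the 10 promoters, all but those of Xbp1 and Atf4, against 1.32% of all promoters.

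The other UPR motifs searched for did not occur in the windows of the 10 genes. These were ER stress element II, which is ATTGG, any base and CCACG (0.0304% of promoters), the UPR element, TGACGTGG (0.563%), and the C/EBP-ATF composite site, TGATGNAAT (0.816%). ER stress element II shares the CCACG end of the first motif and the reverse complement of its CCAAT end, and the UPR element ends in the reverse complement of CCACG. Absence says only that these letters are not in the 250 bases before the start.

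Between genotypes, 3 of the 10 genes were lower and 1 was higher in macrophages of APC-KO tumors. Pdia4, Xbp1 and Hspa5 fell by 1.00 ± 0.167, 0.85 ± 0.135 and 0.66 ± 0.174 (SE) on the log2 scale, and Atf4 rose by 0.50 ± 0.123, with 2 tumors per genotype. Of all 3938 expressed genes, 24.4% were called lower and 24.9% higher, so the count of 4 in 10 is no larger than the share of 49.2% called either way. The median change of the 10 was -0.25, beside -0.03 over all expressed genes. Without the offset for length described next, 5 of the 10 were called, beside 63.4% of expressed genes. Calls rest on summed counts of each tumor and on edgeR's quasi-likelihood test, at a Benjamini-Hochberg adjusted p of 0.05. The fit carried an offset for transcript length, because short transcripts were higher in APC-KO tumors: without it, the median change was 1.44 for the 377 expressed genes of at most 1000 bases and -0.44 for those of 3000 to 4000 bases.

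**Figure D1:**
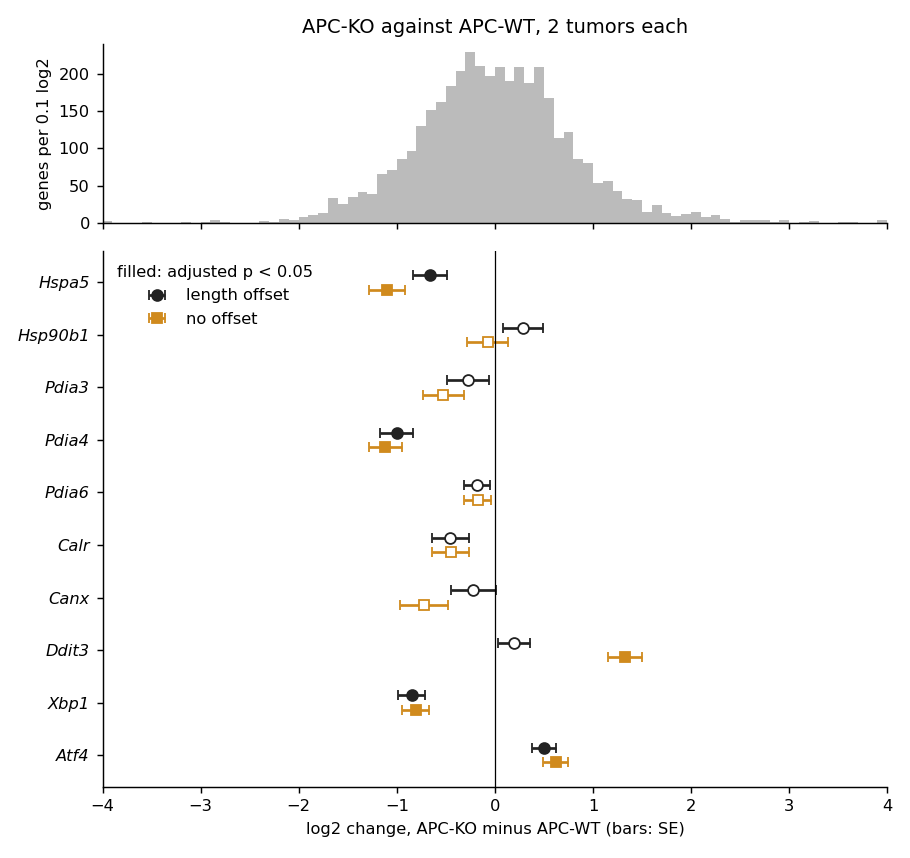
Upper panel: distribution of log2 changes (APC-KO minus APC-WT, length offset) over all 3938 expressed genes, limited to 4 on either side. Lower panel: change ± SE of each of the 10 genes with (circles) and without (squares) the length offset, 2 tumors per genotype; filled symbols have an adjusted p below 0.05, and Pdia4, Xbp1, Hspa5 and Atf4 are filled under both fits, Ddit3 without the offset only.

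Hspa5 (ENSMUSG00000026864, chr2:34771970-34777547, + strand in GRCm38) encodes BiP and had the highest level per kb of transcript among the 10 in every tumor. Its lowest, median and highest values over 6 libraries were 2655, 2740 and 2810 scaled CPM in APC-WT tumor 1 and 2157, 2203 and 2302 in APC-WT tumor 2. In APC-KO tumor 1 they were 1100, 1141 and 1241, and in APC-KO tumor 2 they were 1074, 1112 and 1139. All 12 APC-KO libraries lay below all 12 APC-WT libraries, as libraries of the genotypes did not overlap for 56.5% of expressed genes. Counts of Hspa5 per library ranged from 3353 to 193879. With the length offset the level was 1.58-fold lower in APC-KO tumors (edgeR adjusted p = 0.0339), and without it the change was -1.10 ± 0.181 (adjusted p = 0.00630). The call was lost at 20 CPM and 20 times background (-0.29, adjusted p = 0.210), with background subtracted (-0.37, adjusted p = 0.130), with the offset on the principal isoform (-0.55, adjusted p = 0.0580), and without APC-WT tumor 1 (-0.50, adjusted p = 0.121), APC-KO tumor 1 (-0.69, adjusted p = 0.129) or APC-KO tumor 2 (-0.63, adjusted p = 0.157). It was also lost in a fit over all genes with no limit for expressed genes (-5.20, adjusted p = 0.197), in which the median expressed gene was at -4.01. In the fit with background subtracted, library sizes and the length curve were drawn anew from the reduced counts. Expected background itself was 0.0119% and 0.106% of the Hspa5 level in APC-WT and 1.44% and 1.51% in APC-KO tumors. The part of each in the shift was not tested.

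Hsp90b1 (ENSMUSG00000020048, chr10:86690209-86705509, - strand), the ER Hsp90 that folds Toll-like receptors and integrins among others, showed no difference between genotypes beyond the spread of tumors. Its lowest, median and highest values were 719, 774 and 837 scaled CPM in APC-WT tumor 1, 518, 565 and 594 in APC-WT tumor 2, 596, 621 and 659 in APC-KO tumor 1, and 572, 633 and 665 in APC-KO tumor 2. The medians of the APC-KO tumors lay between those of the APC-WT tumors. The change was 0.29 ± 0.208 with the offset (edgeR adjusted p = 0.298), and its sign turned without the offset (-0.073). The antisense pseudogene 1810014B01Rik overlaps Hsp90b1 at 4.36 to 19.1 scaled CPM, and as the strand used in counting is not given, reads of the overlap cannot be told apart.

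**Figure D2:**
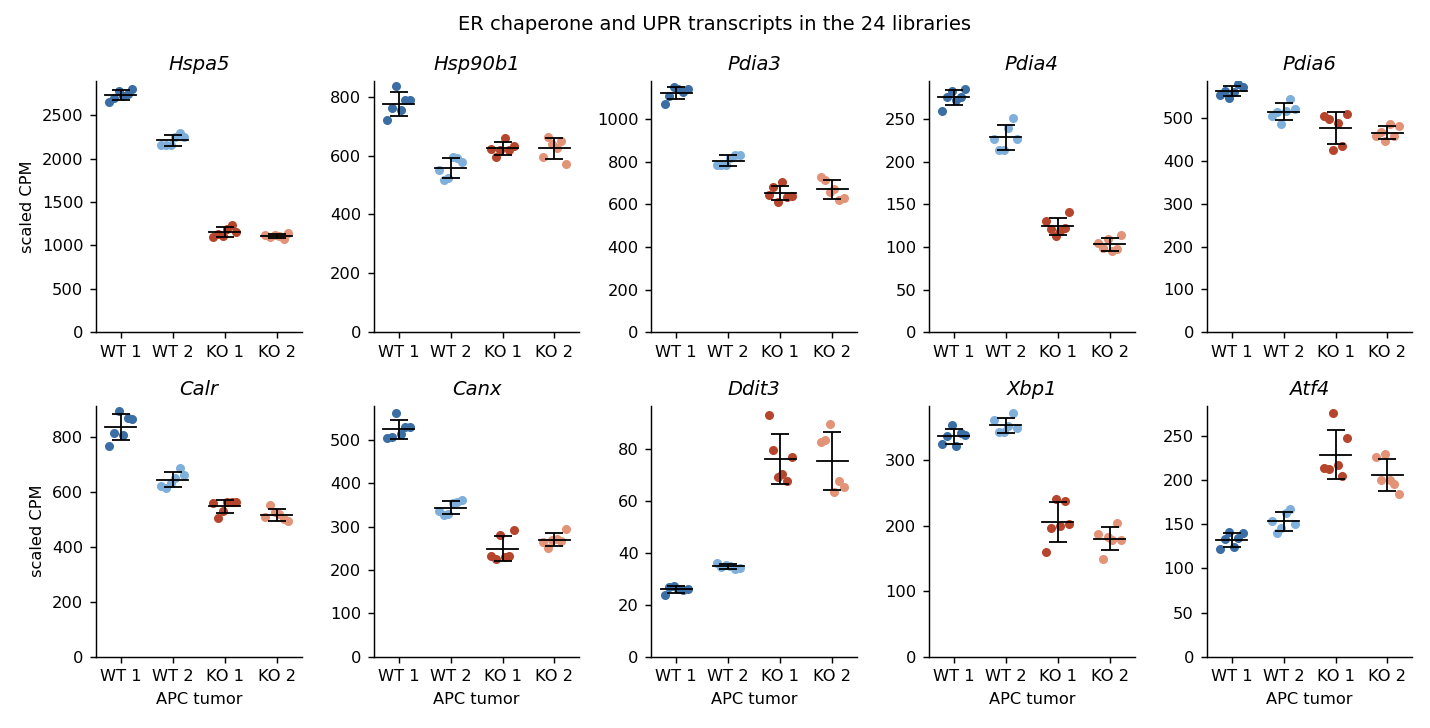
Scaled CPM of each of the 10 genes (vertical axes from 0) in the 4 tumors; each point is 1 library, and bars show mean and SD of 6 libraries. For Hspa5, Pdia4 and Xbp1 all APC-KO libraries lie below all APC-WT libraries, for Atf4 and Ddit3 all lie above, and for Hsp90b1 and Pdia6 the genotypes overlap.

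Of the 3 PDI family members, Pdia4 was lower in APC-KO tumors. Pdia4 (ENSMUSG00000025823, chr6:47796141-47813430, - strand), a large PDI that works with BiP, had lowest, median and highest values of 260, 276 and 285 scaled CPM in APC-WT tumor 1 and 213, 227 and 251 in APC-WT tumor 2. In APC-KO tumor 1 they were 113, 121 and 141, and in APC-KO tumor 2 they were 94.8, 102 and 114. The highest APC-KO library lay below the lowest APC-WT library. The level was 2.00-fold lower in APC-KO tumors (edgeR adjusted p = 0.0104), and 13 of 15 alternatives kept the call. Among the 13 is the fit with DESeq2 size factors, which could not lose it. It was lost when APC-KO tumor 2 was left out (-0.87, adjusted p = 0.0663) and in the fit over all genes (-5.21, adjusted p = 0.0917).

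Pdia3 (ENSMUSG00000027248, chr2:121413775-121438687, + strand), also called ERp57, is the disulfide isomerase that works with calnexin and calreticulin. Its libraries spanned 1070 to 1150 scaled CPM in APC-WT tumor 1, 783 to 833 in APC-WT tumor 2, 612 to 706 in APC-KO tumor 1 and 620 to 728 in APC-KO tumor 2. The genotypes did not overlap, yet the difference between the APC-WT tumors was larger than that between APC-WT tumor 2 and either APC-KO tumor, and the change of -0.27 ± 0.210 did not pass (edgeR adjusted p = 0.322). Pdia6 (ENSMUSG00000020571, chr12:17266545-17284770, + strand), a PDI known to bind BiP and to restrain IRE1, spanned 548 to 579 and 486 to 546 in the APC-WT tumors and 427 to 509 and 447 to 487 in the APC-KO tumors. These ranges overlapped, and the change was -0.18 ± 0.136 (edgeR adjusted p = 0.313). With the limit at 5 CPM and 5 times background both were called lower, Pdia3 at -0.74 (adjusted p = 0.0441) and Pdia6 at -0.55 (adjusted p = 0.0328). In that fit the median over the genes expressed at the reported limit was itself -0.41. Catsper2 overlaps Pdia3 at 1.99 and 4.43 scaled CPM in APC-WT and 30.3 and 29.2 in APC-KO tumors, and Atp6v1c2 overlaps Pdia6 at 0.485 and 1.504 against 19.7 and 21.3, both on the other strand.

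Neither lectin chaperone was called. Calr (ENSMUSG00000003814, chr8:84841850-84846934, - strand), the soluble, calcium-binding lectin, had lowest, median and highest values of 768, 839 and 894 scaled CPM in APC-WT tumor 1, 614, 640 and 688 in APC-WT tumor 2, 505, 561 and 565 in APC-KO tumor 1, and 492, 514 and 553 in APC-KO tumor 2. All APC-KO libraries lay below all APC-WT libraries. The change of -0.45 ± 0.187 did not pass with edgeR (adjusted p = 0.104), passed with DESeq2 (adjusted p = 0.0460), and passed with edgeR when APC-WT tumor 2 was left out (-0.64, adjusted p = 0.0406) or the limit was 5 CPM and 5 times background (-0.82, adjusted p = 0.0227). In the fit at 5 CPM and 5 times background the median over the genes expressed at the reported limit was -0.41. Of the 30-base words of Calr, 2.83% also stand in the pseudogene Calr-ps, which reached at most 1.83 scaled CPM.

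Canx (ENSMUSG00000020368, chr11:50293961-50325673, - strand), the membrane-bound lectin, spanned 504 to 562 scaled CPM in APC-WT tumor 1, 326 to 362 in APC-WT tumor 2, 226 to 291 in APC-KO tumor 1 and 251 to 296 in APC-KO tumor 2. At 4281 bases it is the longest of the 10 transcripts, and its offset, APC-KO minus APC-WT, was -0.50 on the log2 scale. Its change was -0.22 ± 0.230 with the offset (edgeR adjusted p = 0.460) and -0.72 ± 0.242 without (adjusted p = 0.0523). Without APC-WT tumor 1 it turned to 0.10 (adjusted p = 0.630).

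Xbp1 (ENSMUSG00000020484, chr11:5520659-5525893, + strand) encodes the transcription factor that IRE1 activates by splicing, and its total transcript was lower in APC-KO tumors. Its lowest, median and highest values were 322, 338 and 354 scaled CPM in APC-WT tumor 1, 343, 351 and 372 in APC-WT tumor 2, 159, 201 and 240 in APC-KO tumor 1, and 150, 180 and 205 in APC-KO tumor 2. The APC-WT tumors were close to each other and every APC-KO library lay below them. The level was 1.80-fold lower (edgeR adjusted p = 0.00908), hardly moved by the offset (-0.81 ± 0.138 without it), and called under 13 of 15 alternatives. Among the 13 is the fit with DESeq2 size factors, which could not lose the call. The call was lost without APC-KO tumor 2 (-0.74, adjusted p = 0.0700) and in the fit over all genes (-4.81, adjusted p = 0.0917).

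Atf4 (ENSMUSG00000042406, chr15:80255184-80257541, + strand), the transcription factor of the integrated stress response, was the only one of the 10 called higher. Its lowest, median and highest values were 121, 134 and 141 scaled CPM in APC-WT tumor 1, 140, 152 and 167 in APC-WT tumor 2, 204, 215 and 276 in APC-KO tumor 1, and 184, 200 and 229 in APC-KO tumor 2. The lowest APC-KO library lay above the highest APC-WT library. The level was 1.41-fold higher (edgeR adjusted p = 0.0281). The change was 0.17 when the limit was 5 CPM and 5 times background (edgeR adjusted p = 0.299). In that fit the median over the genes expressed at the reported limit was -0.41. The change of Atf4 was 0.42 without APC-WT tumor 1, 0.43 without APC-KO tumor 1 and 0.57 without APC-KO tumor 2, and the call was lost each time.

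Ddit3 (ENSMUSG00000025408, chr10:127290774-127296288, + strand), which encodes CHOP, had the lowest counts of the 10, from 210 to 1885 per library. Its lowest, median and highest values were 23.6, 25.98 and 27.1 scaled CPM in APC-WT tumor 1, 33.9, 34.6 and 36.2 in APC-WT tumor 2, 67.7, 73.4 and 93.1 in APC-KO tumor 1, and 63.5, 75.0 and 89.4 in APC-KO tumor 2. Both APC-KO tumors lay above both APC-WT tumors. Its transcript of 969 bases is the shortest of the 10, in the class of lengths where the levels of most expressed genes were higher in APC-KO tumors. The change was 1.32 ± 0.175 without the offset (edgeR adjusted p = 0.00330) and 0.19 ± 0.165 with it (adjusted p = 0.372), so the call rests on the treatment of length. Mars overlaps Ddit3 on the other strand at 82.6 and 90.5 scaled CPM in APC-WT and 64.2 and 69.1 in APC-KO tumors, and reads of the overlap cannot be told apart.

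**Figure D3:**
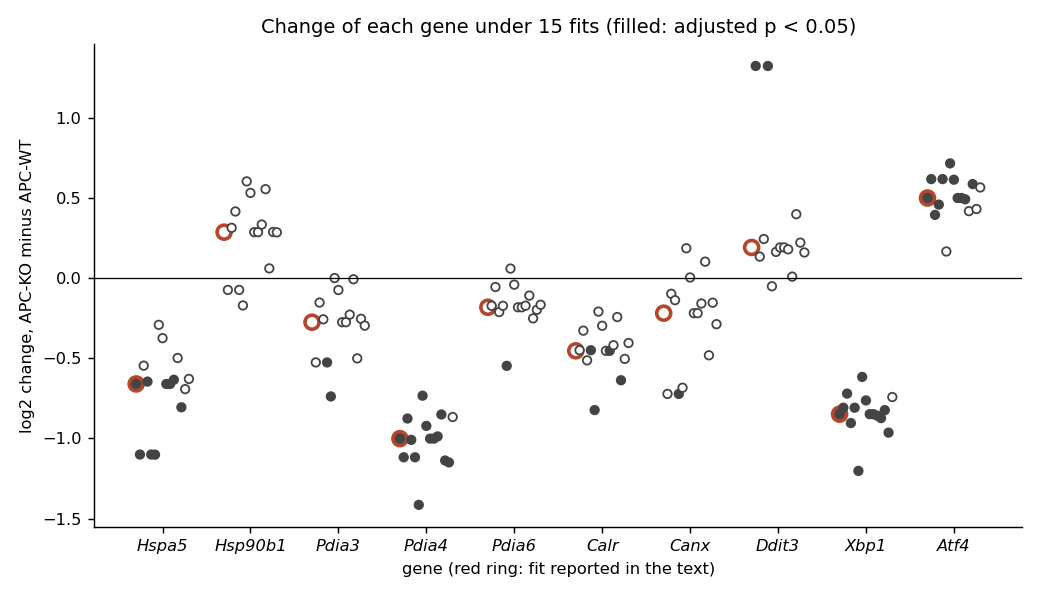
Log2 change (APC-KO minus APC-WT) of each gene in the reported fit (red ring) and under 14 alternatives (13 for Ddit3, which was not tested at 20 CPM and 20 times background), without the fit over all genes with no limit for expressed genes; filled points have an adjusted p below 0.05. Pdia4 (-1.41 to -0.73) and Xbp1 (-1.20 to -0.62) stay below 0 and are mostly filled, and Ddit3 separates into points at 1.32 without the offset and points at smaller changes.

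The make-up of the chaperone pool differed between genotypes. Per kb of transcript, the 7 chaperones Hspa5, Hsp90b1, Pdia3, Pdia4, Pdia6, Calr and Canx summed to 2270 ± 66.3 and 1775 ± 63.9 scaled CPM per kb in the APC-WT tumors and to 1323 ± 38.6 and 1295 ± 24.1 in the APC-KO tumors (SD, n = 6 libraries). Hspa5 made up 32.9% and 34.0% of that sum in APC-WT tumors and 23.7% and 23.3% in APC-KO tumors. The share of Pdia4 was 5.06% and 5.37% against 3.91% and 3.32%. Other chaperones took larger shares in APC-KO tumors: Hsp90b1 had 10.6% and 9.78% against 14.6% and 14.96%, Pdia6 had 11.4% and 13.4% against 16.6% in both, and Calr had 16.8% and 16.6% against 18.9% and 18.3%. Shares of Pdia3 and Canx did not order by genotype (16.4% to 18.7%, and 4.39% to 5.39%). Shares sum to a fixed total, carry no offset for length and were not tested.

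**Figure D4:**
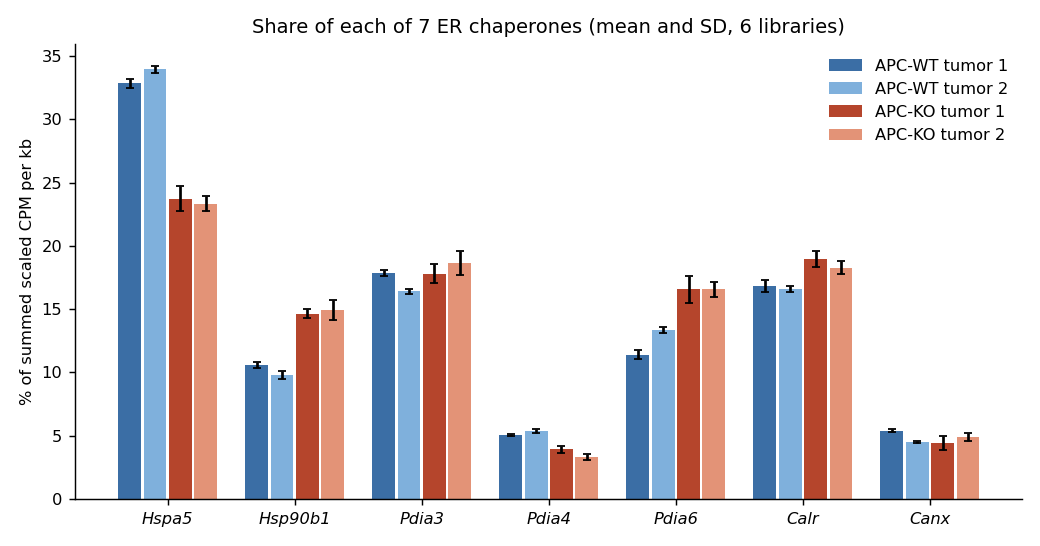
Share of each of 7 ER chaperones in their summed scaled CPM per kb, by tumor; bars are means and error bars SD of 6 libraries, on an axis from 0. Hspa5 stands at 32.9% and 34.0% in APC-WT tumors and at 23.7% and 23.3% in APC-KO tumors, and Hsp90b1 and Pdia6 take larger shares in APC-KO tumors.

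Both of the ER's general chaperones, the Hsp70 Hspa5 and the Hsp90 Hsp90b1, have the ER stress element exactly in the windows above, and their ratio differed between genotypes. There were 0.240 to 0.301 counts of Hsp90b1 per count of Hspa5 in APC-WT libraries and 0.498 to 0.606 in APC-KO libraries, a 2.06-fold higher mean ratio (2.04-fold with background subtracted). The ratios of the genotypes did not overlap, as was so for 68.8% of expressed genes. With the Hspa5 count in place of the library size, Hsp90b1 was 0.96 ± 0.249 higher on the log2 scale with the length offset (edgeR adjusted p = 0.00143) and 1.04 ± 0.241 without it (adjusted p = 0.000473). Relative to Hspa5, Atf4 was higher by 1.13 ± 0.236 (adjusted p = 0.000132) and Ddit3 by 0.82 ± 0.264 (adjusted p = 0.00842). On this scale 53.1% of all expressed genes were called higher and 5.66% lower, so these calls are not particular to the ER genes. They share Hspa5 as divisor, and an exact permutation test of 1 ratio over 2 against 2 tumors cannot give a p below 0.333.

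The ratio of Pdia4 to Hspa5 overlapped between genotypes, at 0.0980 to 0.109 counts per count of Hspa5 in APC-WT and 0.0856 to 0.122 in APC-KO libraries. Relative to Hspa5, the change of Pdia4 was -0.34 ± 0.227 with the length offset (edgeR adjusted p = 0.190) and -0.02 ± 0.220 without it (adjusted p = 0.932). The change of Xbp1 relative to Hspa5 was -0.21 ± 0.235 (adjusted p = 0.455) and 0.27 ± 0.229 without the offset (adjusted p = 0.291). The other chaperones, Pdia3, Pdia6, Calr and Canx, lay 0.21 to 0.47 above Hspa5 with the offset and passed in no case. Without the offset Pdia3 (0.59, adjusted p = 0.0317), Pdia6 (0.92, adjusted p = 0.00138) and Calr (0.65, adjusted p = 0.0161) were called, beside 71.6% of all expressed genes called higher and 3.40% lower.

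The order of the 10 genes per kb was alike at the top and differed at the bottom. Hspa5 was first in all 4 tumors, at 746 and 602 scaled CPM per kb in APC-WT and 314 and 302 in APC-KO tumors. Pdia3 and Calr followed with overlapping libraries (405 and 383 in APC-WT tumor 1, 236 and 251 in APC-KO tumor 1), then Pdia6 and Hsp90b1. Libraries of Pdia6 and Hsp90b1 overlapped in all tumors but APC-WT tumor 2, where those of Hsp90b1 and Xbp1 did, and Canx and Pdia4 overlapped in tumor 1 of each genotype. In APC-WT tumors Xbp1 (158 and 166), Canx and Pdia4 came next, then Atf4 (65.5 and 75.8), with Ddit3 last (26.7 and 35.9). Canx stood above Pdia4 in APC-WT tumor 1, while in APC-WT tumor 2 Pdia4 (95.3) stood above Canx (80.3). There the libraries of Canx overlapped those of Atf4. In APC-KO tumors Atf4 came after Hsp90b1 (113 and 102) and its libraries overlapped those of Xbp1 (96.7 and 84.7), which overlapped those of Ddit3 (78.5 and 77.7), and Pdia4 was last (51.8 and 43.0). Between Ddit3 and Pdia4 the order thus turned, on a scale with no offset for length beyond the division by kb.

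The tumors of 1 genotype also differed from each other. In a fit of all 24 libraries, 7 of the 10 genes were lower and 2 higher in APC-WT tumor 2 than in APC-WT tumor 1, beside 27.8% and 19.5% of expressed genes. The lower ones were the 7 chaperones, from -0.14 ± 0.043 for Pdia6 through -0.30 ± 0.030 for Hspa5 to -0.57 ± 0.059 for Canx (edgeR adjusted p = 0.0101 for Pdia6 and below that for the others). Ddit3 was 0.39 ± 0.082 and Atf4 0.19 ± 0.069 higher (adjusted p = 0.000334 and 0.0305), and Xbp1 was not called (0.06 ± 0.067, adjusted p = 0.532). These p-values measure the spread between libraries of a tumor, which may be technical.

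Between the APC-KO tumors 3 of the 10 genes were lower in tumor 2 and 0 were higher, beside 17.2% and 16.1% of expressed genes. Pdia4 changed by -0.29 ± 0.056 (edgeR adjusted p = 0.000228), Xbp1 by -0.21 ± 0.069 (adjusted p = 0.0199) and Calr by -0.10 ± 0.040 (adjusted p = 0.0482). Hspa5 was not called (-0.06 ± 0.030, adjusted p = 0.143). The call of Calr was lost without the length offset (-0.08, adjusted p = 0.123) and with DESeq2 (-0.10, adjusted p = 0.0541). With the library number as a block it was lost too (adjusted p = 0.0744) and Canx was called higher (0.13, adjusted p = 0.0489).

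Set tumor against tumor, 5 of the 10 genes passed with 1 sign in all 4 pairs of tumors from different genotypes: Hspa5, Pdia4, Calr and Xbp1 lower and Atf4 higher, beside 31.0% and 29.7% of expressed genes (60.6% in all). Hspa5 ranged from -0.84 to -0.48 over the pairs, Pdia4 from -1.29 to -0.73, Calr from -0.69 to -0.20, Xbp1 from -0.99 to -0.72, and Atf4 from 0.34 to 0.69. The pairs share tumors and are not independent, and their p-values measure the spread between libraries of a tumor, not between tumors. Hsp90b1 was 0.54 higher in each APC-KO tumor than in APC-WT tumor 2 and 0.07 and 0.06 above APC-WT tumor 1, where it was not called (edgeR adjusted p = 0.155 and 0.184). Pdia3 was -0.51 and -0.48 against APC-WT tumor 1 and -0.02 and 0.01 against APC-WT tumor 2. With expected background subtracted, and library sizes and length curves drawn anew, 2 genes passed as higher and 3 as lower in all 4 pairs. The share of all expressed genes that passed in that fit is not given here. Calr dropped out (-0.036 in APC-KO tumor 1 against APC-WT tumor 2, adjusted p = 0.421), and Hsp90b1 joined as higher, at 0.33 and 0.32 above APC-WT tumor 1 (adjusted p = 3.40e-07 and 5.51e-07). On tumor sums with background subtracted neither was called, with Hsp90b1 at 0.53 (edgeR adjusted p = 0.0893) and Calr at -0.30 (adjusted p = 0.234). Hspa5 then ranged from -0.55 to -0.21. Pdia3 was then -0.29 and -0.26 against APC-WT tumor 1 and called higher against APC-WT tumor 2 (0.18, adjusted p = 0.000255, and 0.21, adjusted p = 4.11e-05).

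Over the 24 libraries, after the length offset, the genes whose log2 level followed that of Hspa5 most closely were Cd38 (Pearson r = 0.989), a NAD-consuming ectoenzyme, Tlr2 (0.988), a receptor of bacterial lipoproteins, H2-K1 (0.986), an MHC class I heavy chain, Pmaip1 (0.985), which encodes the BH3 protein NOXA, and Gpr65 (0.984), a proton-sensing receptor. The 24 libraries come from 4 tumors, so r mostly describes the tumor means and no p is given. Among the 10 genes Pdia4 was nearest (0.971, place 46 of all expressed genes), then Calr (0.948), Xbp1 (0.903), Pdia6 (0.805), Pdia3 (0.777) and Canx (0.628). Hsp90b1 (-0.38), Ddit3 (-0.66) and Atf4 (-0.88) ran the other way. Around the tumor means r with Hspa5 was lower for each of the 6 first named, from 0.0378 for Pdia6 to 0.527 for Calr. There it was 0.316 for Hsp90b1 and 0.0195 for Atf4, which thus did not run against Hspa5 within tumors, and -0.264 for Ddit3.

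The wider ER folding pathway moved in both directions. Of 140 genes in 8 further lists, 93 were expressed, of which 23 were higher and 20 lower in APC-KO tumors with a median change of -0.08. Without the length offset 28 were higher and 39 lower, and 17 were higher and 19 lower under both. Shares of all expressed genes called were 24.9% and 24.4% with the offset and 32.7% and 30.7% without. Among helpers of BiP and GRP94, 2 of 10 were higher and 1 lower. Manf, a secreted ER stress protein, rose by 1.10 ± 0.216 (edgeR adjusted p = 0.0157), Cnpy3, a cochaperone of GRP94, fell by 0.34 ± 0.099 (adjusted p = 0.0435), and Grpel1, which serves the mitochondrial Hsp70 rather than BiP, rose by 1.40 ± 0.128 (adjusted p = 0.00341). Without the offset the call of Cnpy3 was lost (-0.13, adjusted p = 0.310), and Grpel1 was at 0.98. The BiP cochaperone Dnajb9 had -0.44 ± 0.187 (adjusted p = 0.110).

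Among ER disulfide enzymes and prolyl isomerases 4 of 11 were higher and 2 lower. Erp29 (2.10 ± 0.162, edgeR adjusted p = 0.00295), a PDI relative without the redox site, and the isomerase Fkbp2 (1.64 ± 0.120, adjusted p = 0.00276) rose, while the thioredoxin-domain enzymes Tmx1 (-0.88 ± 0.137, adjusted p = 0.00863) and Txndc5 (-0.69 ± 0.164, adjusted p = 0.0263) fell. The offset for Erp29 took a longest transcript of 5204 bases, and without it the change was 1.58. In glycan quality control 2 of 8 were higher and 1 lower: Prkcsh, the beta subunit of glucosidase II, at 0.71 (adjusted p = 0.0135), the cargo lectin Lman1 at 0.40 (adjusted p = 0.0268, and -0.12 without the offset), and Edem1, a lectin that directs glycoproteins to degradation, at -0.47 (adjusted p = 0.0333). Mcfd2, the partner of Lman1, had -0.35 (adjusted p = 0.143).

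In ER-associated degradation 2 of 13 were higher and 5 lower. Herpud1, a scaffold of the ubiquitin ligase that is itself a UPR target, fell by 1.64 ± 0.351 (edgeR adjusted p = 0.0196), and the channel component Derl1 by 0.44 ± 0.094 (adjusted p = 0.0189). Ubxn4 (1.23, adjusted p = 0.00295), which recruits p97, and the ubiquitin-conjugating enzyme Ube2j2 (1.00, adjusted p = 0.00509) rose. Without the offset Herpud1 was at -1.46, Derl1 at -0.80, Ubxn4 at 0.74 and Ube2j2 at 0.59. Of 19 genes of the translocon and of N-glycosylation 6 were higher and 6 lower. Subunits of 1 complex went apart there, as the translocon-associated Ssr4 rose by 1.46 ± 0.129 (adjusted p = 0.00322) while its partner Ssr3 fell by 0.89 ± 0.0997 (adjusted p = 0.00438). Without the offset these changes were 1.27 and -1.19. The offset took the longest annotated transcripts, of 2568 and 2957 bases. Whether the isoforms present had such lengths was not tested, and a shorter one would fall in a class that was higher in APC-KO tumors. Dad1, a subunit of oligosaccharyltransferase, rose by 1.61 (adjusted p = 0.00266) and the translocating chain protein Tram1 fell by 1.14 (adjusted p = 0.00486). Without the offset Dad1 was at 1.20 and Tram1 at -1.43.

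**Figure D5:**
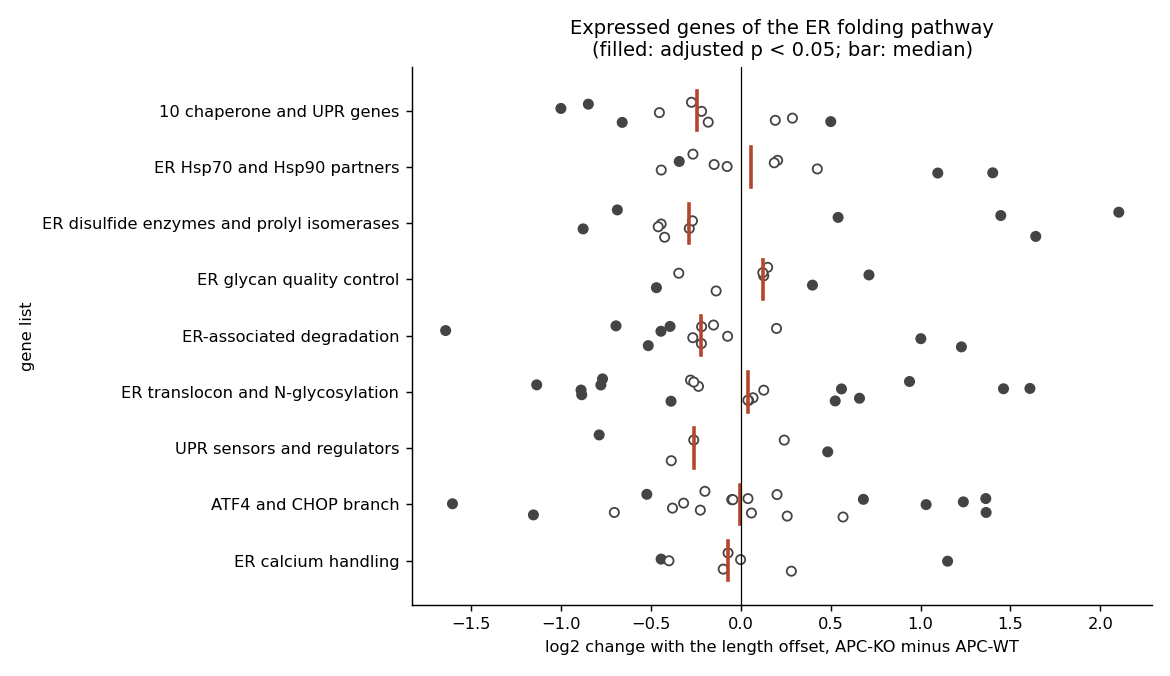
Log2 change with the length offset (APC-KO minus APC-WT) of each expressed gene of the ER folding pathway, by list; points are genes, filled where the adjusted p is below 0.05, and red bars are list medians. The 10 chaperone and UPR genes have a median of -0.25, and the other lists hold called genes on both sides of 0.

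Of the UPR sensors and regulators 5 of 12 were expressed, 1 higher and 1 lower. Atf6b, a relative of ATF6, fell by 0.79 ± 0.105 (edgeR adjusted p = 0.00604), and Dnajb6, a cytosolic cochaperone rather than a sensor, rose by 0.48 ± 0.114 (adjusted p = 0.0253). The call of Dnajb6 was lost without the length offset (0.19, adjusted p = 0.196). Tmbim6, which restrains IRE1, had -0.39 (adjusted p = 0.0656) and the ER-anchored factor Creb3 0.24 (adjusted p = 0.103). The sensors themselves were below the limit for expressed genes and were not tested. Ern1, which encodes IRE1, was at 60.6 and 65.7 scaled CPM in APC-WT and 63.6 and 54.7 in APC-KO tumors, where 32.1 and 32.4 are background. Atf6 was at 155 and 129 against 98.4 and 95.7, of which 36.2 and 36.6 are background, and Eif2ak3, which encodes PERK, at 22.4 and 26.4 against 43.5 and 43.2, with 23.7 and 23.9 background.

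In the ATF4 and CHOP branch 5 of 20 were higher and 3 lower, beside 24.9% and 24.4% of all expressed genes. Sars, a seryl-tRNA synthetase that ATF4 induces, rose by 1.24 ± 0.122 (edgeR adjusted p = 0.00362) and Cebpg, a binding partner of ATF4, by 1.03 ± 0.135 (adjusted p = 0.00592). Vegfa, an angiogenic factor, fell by 1.60 ± 0.167 (adjusted p = 0.00396) and the stress factor Atf3 by 1.15 ± 0.176 (adjusted p = 0.00826). Without the length offset Sars was at 0.81, Cebpg at 0.51, Vegfa at -2.01 and Atf3 at -1.01. Of 7 expressed genes on the list for ER calcium handling 1 was higher, Sdf4 (1.15, adjusted p = 0.00353), and 1 lower, the calcium pump Atp2a2 (-0.44, adjusted p = 0.0413). Without the offset they were at 0.63 and -0.94. Calu and Rcn2, both EF-hand proteins of the secretory pathway, had -0.40 (adjusted p = 0.0877) and 0.28 (adjusted p = 0.131).

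Of 8 expressed genes with an exact match to the ER stress element in the promoter, Hspa5 and Syvn1, a ubiquitin ligase of ER-associated degradation (-0.39 ± 0.101, edgeR adjusted p = 0.0314), were lower and 0 were higher, with a median of -0.20, beside 24.4% of all expressed genes lower and 24.9% higher. Calr, Canx and Pdia6 had negative changes and Creld2 (0.19 ± 0.224, adjusted p = 0.516), Hsp90b1 and Dnajc3 (0.43 ± 0.143, adjusted p = 0.0642) positive ones, none called. Pdia4 and Xbp1, the genes with the larger falls, had no exact match in the window.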

How the data were processed

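The authors deposited whole-number counts per gene for 24 libraries. Per the submitters' processing notes, the tools were bcl2fastq 2.20.0, HISAT2 and StringTie and the build was mm9; strand, annotation and settings are not given in the sources used here. Per the labels' protocols, sorted cells went into an ultra low input Nextera XT preparation. Symbols, lengths and coordinates come from GENCODE M21 and promoters from RefSeq, both on GRCm38 and matched by gene ID or symbol (55227 of 55487 IDs had a symbol and a length).

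Computations used edgeR 4.0.16, DESeq2 1.42.0 and limma 3.58.1 under R 4.3.3, and Python 3.11.15 for annotation, promoters and plots. Expected background is the receptor genes' count per base of exon, and 12 loci sharing at least 0.3 of their 15-base words with the satellite-like Gm10800 were left out of the expressed genes. For genotype, each tumor's 6 libraries were summed, and edgeR's quasi-likelihood test compared the 2 sums of APC-KO with the 2 of APC-WT. The length offset came from a loess curve, with span 0.5, of log2 level against log2 length of the longest transcript, drawn per tumor. It absorbs overall scale, so other size factors cannot move this fit. SE was taken as the log2 change over the root of F. Tumor pairs were fitted on 24 libraries with a mean per tumor, and p-values were adjusted over all genes of a fit (3938 in the reported fits, 3937 relative to Hspa5). The scripts were tested on simulated data.

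The members, lists and tests were chosen with earlier results of these data known. All 10 members are named, of each further list up to 4 genes with the smallest p (2 each way where possible), and the 5 genes most like Hspa5; sensors below the limit, Syvn1, Creld2 and Dnajc3 were named after their values were seen. The ratio to Hspa5 was likewise added later. Alternatives left out each tumor, or changed the offset, the limit for expressed genes, the background, the scaling or the tool. No libraries of a tumor differed by as little as sampling noise (chi-square per degree of freedom at least 6.45 in every pair).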

Additional observations from a re-analysis of the deposited data

How the results depend on the processing

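Pdia4 and Xbp1 were called lower under 13 of 15 alternatives, Hspa5 under 8 of 15 with its sign kept in all 15, and Atf4 was called higher under 10. These counts include the fit with DESeq2 size factors in edgeR, which returns the reported fit and so could not lose a call. They also include the fit over all genes, where the median expressed gene was at -4.01, so a negative sign there is not particular to Hspa5. With 2 tumors per genotype, leaving out 1 gave 810 to 1924 expressed genes called (1939 with all tumors) and 0 to 5 of the 10 genes. Without APC-WT tumor 1, 2 of the 10 were called and Canx turned to 0.10 (its lowest value with 1 tumor left out was -0.48, its highest 0.10); without APC-KO tumor 1, 2 of the 10 and 824 expressed genes were called; and without APC-KO tumor 2, 0 of the 10 and 810 expressed genes (1672 at an unadjusted p below 0.05). A lone tumor is assumed to vary like the others.

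Over all 53705 genes passing filterByExpr, edgeR called 0 genes and 0 of the 10 (17844 at an unadjusted p below 0.05). In that fit the median expressed gene was at -4.01 and Hsp90b1 (-4.22), Atf4 (-3.34) and Ddit3 (-2.56) turned. With no filter but scaling to expressed genes, 32115 genes and 8 of the 10 were called, and Hsp90b1 was at -0.073. At 5 CPM and 5 times background 4015 genes were called, 6 of the 10 were lower and 0 higher, Hsp90b1 turned to -0.17 and Ddit3 to -0.050, with a median of -0.41 over the genes expressed at the reported limit. At 20 CPM and 20 times background 869 genes were called among 1986 tested, and Pdia3 (0.00083), Pdia6 (0.060) and Canx (0.19) turned. Subtracting background, with library sizes and the length curve drawn anew, turned Canx to 0.0045. Beyond the fewer or more genes and tumors tested, the cause was not tested.

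Without the length offset Hsp90b1 was at -0.073, and 9 of the 10 genes passed in all 4 pairs with 1 sign (5 with it). Of all expressed genes 60.6% passed so with the offset, and the share without it is not given here. In the genotype fit 63.4% of expressed genes were called without the offset and 49.2% with it. There 67 genes of the further lists were called (43 with it). Between the APC-KO tumors Hsp90b1 (0.00046) and Ddit3 (-0.014) turned without the offset, as did Xbp1 relative to Hspa5 (0.27). The library number does not pair libraries of different tumors: deviations of 36 same-number pairs correlated at -0.50 to 0.785 with a median of -0.021, and 3 of 24 libraries correlated best with their own number. With the replicate block 9 genes were called between the APC-WT tumors, 3 between the APC-KO tumors and 5 in all 4 pairs, as without it.

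Depth limits the APC-KO tumors most, where Ddit3 rests on 210 to 475 counts per library and background reaches 9.18% of Pdia4.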

Other observations

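Several amino acid response genes that ATF4 is known to induce were above expected background in all 4 tumors. They did not reach the limit for expressed genes, so they were not tested. Trib3, a pseudokinase that binds ATF4, was at 4.57 and 12.3 scaled CPM in the tumors with Apc and 37.4 and 42.1 in those without, where the expected background was 8.34 and 8.42. Psat1, an enzyme of serine synthesis, was at 21.5 and 26.6 against 57.9 and 70.7, with 16.7 and 16.9 of background. Asns, asparagine synthetase, was at 5.01 and 10.8 against 17.1 and 30.5, with 10.7 and 10.8 of background. Chac1, which degrades glutathione, was at 0.741 and 2.202 against 17.8 and 15.5, with 6.42 and 6.48 of background. These genes were chosen after their values were seen, and the part of background in their levels beyond the expected amount was not tested. In the fit with no filter but scaling to expressed genes, 30671 of 55060 genes were called higher, with a median change of 3.56. Higher levels in APC-KO tumors are therefore not particular to these genes. The B cell marker Cd79a, for example, was at 0.496 and 1.98 against 17.7 and 20.4, with 5.72 and 5.77 of background.

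The oxidase Ero1l, which recharges PDI enzymes, varied more within a genotype than between them, at 276 and 807 scaled CPM under APC-WT and at 427 and 138 under APC-KO, with a change of -0.44 ± 0.737 (edgeR adjusted p = 0.634). Slc7a11, the cystine transporter that ATF4 induces, was at 135 and 170 against 431 and 229 (1.36 ± 0.355, adjusted p = 0.0326). In the same list, where 5 of 20 expressed genes were called higher and 3 lower, other genes went the other way without a call. Slc3a2 had -0.32 ± 0.172 (edgeR adjusted p = 0.183) and Nars -0.38 ± 0.129 (adjusted p = 0.0655). Ero1l and Slc7a11 were named outside the rule of the smallest p.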
